A study of Mus musculus with 24 samples.

Results

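The chromatin of 9 chondrogenic and skeletal regulator genes was examined in mouse limb buds with and without Sonic hedgehog and in a Hedgehog-responsive fibroblast line. The genes were Sox9, Sox5, Sox6, Col2a1, Acan, Runx2, Runx3, Sp7 and Scx. Their peaks were all those that overlapped the mm10 gene body or the 50 kb on either side of it, in 7 lists of regions enriched for a histone mark. This gave 884 of 368246 peaks. By list there were 166 peaks for WT H3K27ac, 124 for Shh-/- H3K27ac, 84 for WT H3K4me2, 83 for Shh-/- H3K4me2, 32 for Shh-/- H3K27me3, 194 for H3K27ac in NIH3T3 cells with DMSO and 201 for H3K27ac in NIH3T3 cells with purmorphamine.

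The limb samples were whole forelimb buds of Swiss Webster embryos at E10.5 (32 to 35 somites), with about 400000 cells per chromatin immunoprecipitation (ChIP). The Shh-/- embryos carried the null allele Shh tm1amc in every cell, and buds of several litters were pooled. Per the study's methods the controls labelled WT mixed wild-type and heterozygous littermates. NIH3T3, an established mouse fibroblast line, was kept in low serum per the methods and labelled as 48 h of LIF with either 400 nM purmorphamine, a Smoothened agonist that activates the Hedgehog pathway, or DMSO, its solvent, with 1000000 cells per ChIP. Of 24 libraries, 14 were ChIP and 10 were input, and each condition had 2 ChIP libraries and 1 deposited peak list. How the 2 libraries were combined in that list is not given in the sources used here, no spread between replicates can be computed, and no difference below has a replicate test. Intervals on shares are 95% Wilson intervals, which cover counting error only, and neighbouring peaks are not independent. H3K27me3 was profiled in Shh-/- buds, with no WT list to set beside it. In whole buds, fewer cells that carry a mark and less of the mark per cell cannot be told apart.

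Cartilage and bone both arise from limb bud mesenchyme. SOX9 starts the chondrogenic programme, and SOX5 and SOX6, which lack an activation domain of their own, bind with it at cartilage genes such as Col2a1 (type II collagen) and Acan (aggrecan, the main cartilage proteoglycan). RUNX2 and RUNX3 drive chondrocyte maturation, RUNX2 and SP7 (osterix) are needed for osteoblasts, and SCX (scleraxis) marks tendon progenitors. At the stage sampled, condensations that will become cartilage are only beginning, Shh is secreted from the posterior margin, and GLI proteins act as activators where its signal is received and as repressors elsewhere. H3K27ac marks active promoters and enhancers, H3K4me2 marks active and poised regulatory regions, and H3K27me3 is laid down by Polycomb repressive complex 2. A promoter that carries both H3K4 methylation and H3K27me3 is called bivalent.

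Several of the genes have more than 1 start, and the marks differed between starts, so the promoter sequences that separate them are shown first. They are RefSeq promoters on GRCm38.p6 (mm10), 250 bases before to 50 bases after a start, 5′ to 3′ along the gene, with each CG dinucleotide in capitals because CG-rich starts are where Polycomb marks are usually found. RefSeq entries were at hand for Sox5, Sox6, Acan, Runx2 and Runx3 and not for Sox9, Col2a1, Sp7 and Scx. Of the 2 Sox6 starts nearest its 5′ end, the upstream promoter (chr7:116038695-116038994, minus strand, 11 CG) lay in H3K4me2 and partly in H3K27me3 and had no H3K27ac, and the downstream one (chr7:116030998-116031297, minus strand, 13 CG) had H3K27ac in both genotypes and no H3K27me3. Of the Runx3 pair, the upstream promoter (chr4:135120395-135120694, plus strand, 8 CG) lay in no peak of any list, while the downstream one (chr4:135152295-135152594, plus strand, 45 CG) lay in H3K27me3 and H3K4me2, as did the only Acan promoter (chr7:79052976-79053275, plus strand, 31 CG). Over all 32851 RefSeq promoters the quartiles of the CG count were 3.00, 7.00 and 20.0. The Runx3 downstream and Acan promoters were thus above the upper quartile, and the 2 Sox6 promoters and the upstream Runx3 promoter lay between the median and that quartile.
Sox6 upstream promoter: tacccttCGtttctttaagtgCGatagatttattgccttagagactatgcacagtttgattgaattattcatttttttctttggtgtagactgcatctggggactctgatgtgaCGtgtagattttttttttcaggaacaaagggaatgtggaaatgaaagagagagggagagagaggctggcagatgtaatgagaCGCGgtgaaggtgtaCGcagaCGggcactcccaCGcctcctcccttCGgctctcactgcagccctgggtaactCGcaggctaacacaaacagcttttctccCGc
Sox6 downstream promoter: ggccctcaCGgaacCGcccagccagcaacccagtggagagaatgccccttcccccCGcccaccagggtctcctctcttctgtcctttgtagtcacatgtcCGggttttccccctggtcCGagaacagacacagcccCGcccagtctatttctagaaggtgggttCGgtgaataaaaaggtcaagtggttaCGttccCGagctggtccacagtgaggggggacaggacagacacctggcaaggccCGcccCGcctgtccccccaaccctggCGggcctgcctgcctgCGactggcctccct
Runx3 upstream promoter: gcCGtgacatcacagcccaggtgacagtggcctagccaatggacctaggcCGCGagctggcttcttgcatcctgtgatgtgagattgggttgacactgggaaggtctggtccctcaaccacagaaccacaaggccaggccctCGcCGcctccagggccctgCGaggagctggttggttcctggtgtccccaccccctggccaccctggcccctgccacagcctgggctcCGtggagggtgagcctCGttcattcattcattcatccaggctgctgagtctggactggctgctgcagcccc
Runx3 downstream promoter: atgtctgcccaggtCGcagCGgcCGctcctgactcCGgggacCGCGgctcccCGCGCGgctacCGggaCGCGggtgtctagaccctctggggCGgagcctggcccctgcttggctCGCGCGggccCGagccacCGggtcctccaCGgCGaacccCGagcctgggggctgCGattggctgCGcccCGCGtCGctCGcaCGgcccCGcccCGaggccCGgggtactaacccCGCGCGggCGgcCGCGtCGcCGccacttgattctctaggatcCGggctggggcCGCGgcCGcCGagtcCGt
Acan promoter: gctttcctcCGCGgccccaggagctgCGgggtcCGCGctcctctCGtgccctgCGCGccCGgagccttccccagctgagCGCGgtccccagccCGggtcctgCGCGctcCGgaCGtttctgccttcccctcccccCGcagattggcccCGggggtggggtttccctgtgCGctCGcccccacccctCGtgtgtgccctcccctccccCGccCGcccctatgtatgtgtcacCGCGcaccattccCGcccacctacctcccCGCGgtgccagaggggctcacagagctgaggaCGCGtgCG

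The share of each locus that lay in peaks separated the 9 genes into kinds. The 3 SOX genes and Col2a1 were acetylated in limb buds. WT H3K27ac covered 3.46% of the Sox9 window (its gene body with 50 kb on either side). It covered 2.55% of the window of Sox5, 3.88% of that of Sox6 and 4.07% of that of Col2a1. Runx3 and Acan had next to no limb H3K27ac, with 0.286% and 0.278% in WT and 0% in Shh-/-, and Runx3 had by far the most H3K27me3, at 9.06% of its window against at most 1.82% at the other 8 genes (Col2a1). Runx2 was the reverse of Sox6 between tissues. Its NIH3T3 H3K27ac covered 14.0% with DMSO and 11.1% with purmorphamine against 1.01% in WT limb buds, while Sox6 had 0% in both NIH3T3 lists.

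The genes near Sp7 and Scx limit what those windows show. Sp7 shares its window with Espl1, Pfdn5, Myg1, Aaas and Sp1, and Scx lies inside Bop1 with Mroh1, Hsf1 and Dgat1 nearby, and their covered shares of limb H3K27ac (6.56% and 5.05% in WT) were the highest of the 9 although neither had a limb H3K27ac peak at its own start. WT H3K27ac covered more than the Shh-/- list in all 9 windows. Over the whole genome the WT list was also the longer, at 49679 against 43916 peaks and 23.2 Mb against 19.7 Mb. The numbers of genes whose covered share was above the median of protein-coding genes were 7 for WT H3K27ac, 6 for Shh-/- H3K27ac, 6 and 5 for H3K4me2, 7 for H3K27me3 and 5 and 6 for NIH3T3 with DMSO and purmorphamine.

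**Figure D1:**
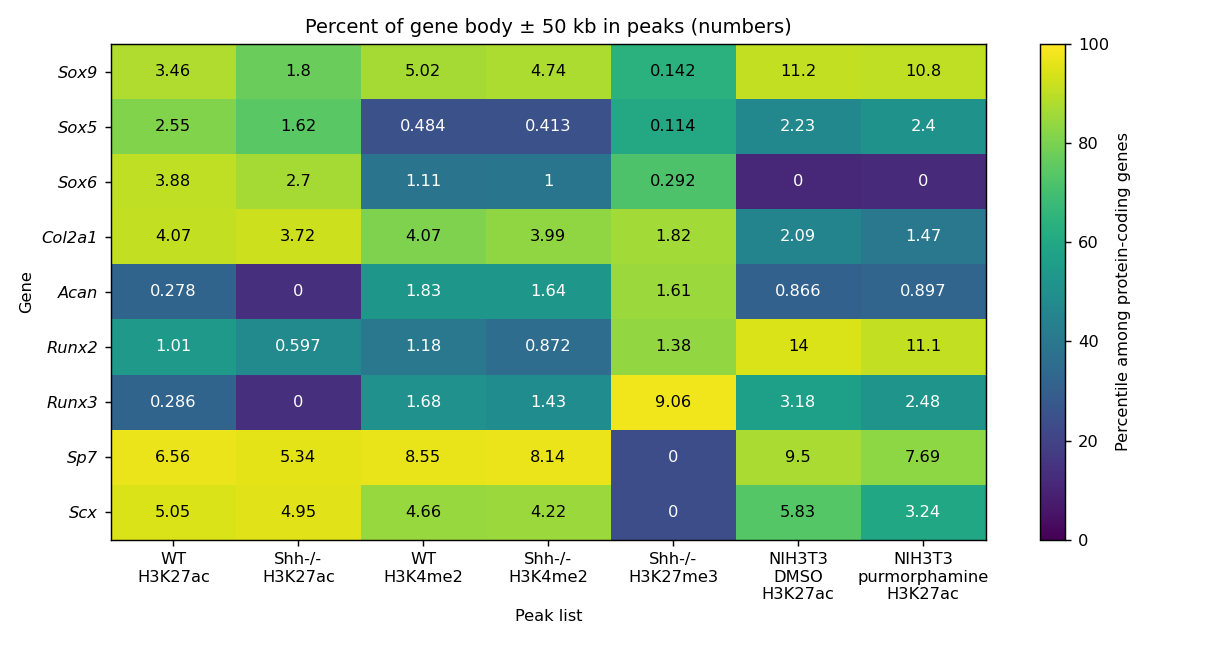
Percent of each gene body with 50 kb on either side that lies in peaks of each list (numbers in the cells), coloured by percentile among protein-coding genes. Runx3 has the most H3K27me3 (9.06%), Runx2 the most NIH3T3 H3K27ac (14.0% with DMSO), and Sox6 has 0% in both NIH3T3 lists.

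All 9 genes had H3K4me2 from 2 kb before to 1 kb after a start, in WT and in Shh-/-, and fewer had H3K27ac. With peaks of FDR under 0.05 the H3K4me2 count was 8 in each genotype, and with the better-ranked 50% it was 7 in each. H3K27ac was at a promoter of 4 genes in WT (Sox9, Sox5, Sox6, Col2a1) and of 5 in Shh-/- (the same 4 and Runx2). The background was 43.8% of 21884 protein-coding genes for WT H3K27ac, 40.9% for Shh-/- H3K27ac, and 64.0% and 63.5% for WT and Shh-/- H3K4me2. H3K27me3 was at a promoter of 5 of 9 genes (Sox6, Col2a1, Acan, Runx2, Runx3) against 13.3% of all genes. Counting all GENCODE starts gave 6 genes. The most upstream Sox5 start, outside the basic annotation, had H3K27me3 with a log2 ratio of 2.53. NIH3T3 H3K27ac was at promoters of the same 4 genes with DMSO and with purmorphamine (Sox9, Sox5, Runx2, Scx), where the background was 53.0% and 53.1%. The members were chosen as developmental regulators, so their share is given beside the background as a description.

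**Figure D2:**
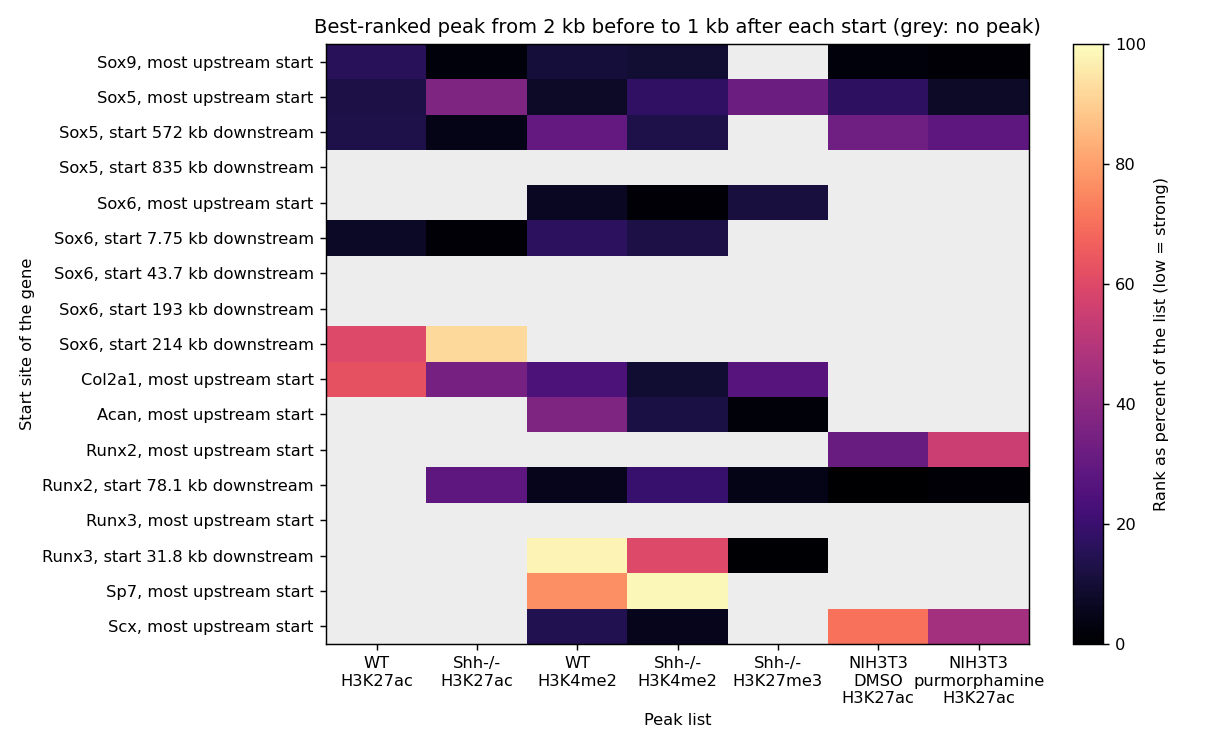
The best-ranked peak of each list from 2 kb before to 1 kb after each start of each gene, coloured by its rank as a percent of its list (dark is strong, grey is no peak). The Sox6 most upstream start has H3K27me3 (11.7%) without H3K27ac, the start 7.75 kb downstream has H3K27ac (7.40% in WT and 0.961% in Shh-/-) without H3K27me3, and Runx2 has its strongest marks at the start 78.1 kb downstream.

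Sox9 (chr11:112782224-112787760, plus strand), the gene of the master regulator, was acetylated at its start in both genotypes, with no H3K27me3 there. The start peak had a log2 ratio of ChIP to input of 4.21 in WT (rank 7846 of the list) and 5.60 in Shh-/- (rank 892), a difference (WT minus Shh-/-) of -1.39. Among the differences at all 22895 regions with a peak in both lists, whose median was 0.23, it was at percentile 1.01. Peaks are ranked by the authors' score within each list, rank 1 being the strongest. The neighbouring region just upstream, chr11:112780300-112781849, gave 3.26 in WT and 3.96 in Shh-/-, a difference of -0.70 at percentile 8.97. H3K4me2 at the start was alike, with log2 ratios of 4.09 in WT and 4.15 in Shh-/-. Sox9 is flanked by a long gene desert that reaches far beyond the 50 kb taken here. The only limb H3K27ac more than 10 kb from it in the window lay 44.4 to 45.0 kb downstream, where the stronger of 2 WT peaks, chr11:112826500-112826799 (log2 3.31), and the Shh-/- peak chr11:112827100-112827299 (3.19) lay beside each other without overlap. The single H3K27me3 peak in the window, of 150 bp in an exon near its 3′ end, had a false discovery rate (FDR) of 0.219.

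The same direction was seen at the strongest acetylated starts of Sox5 and Sox6 in the GENCODE basic annotation. A weaker basic start of Sox6, 214 kb downstream, went the other way. Its best-ranked peaks had 2.94 in WT and 2.46 in Shh-/-, and no WT and Shh-/- peak overlapped there. At the Sox5 start 572 kb into the gene (chr6:143828425-144781977, minus strand) the 2 regions had log2 ratios of 4.02 in WT against 4.78 in Shh-/- and of 4.39 against 5.13, differences of -0.76 and -0.74 at percentiles 7.73 and 8.08. At the Sox6 start 7.75 kb downstream, chr7:116031000-116032849 gave 4.91 in WT and 5.97 in Shh-/-, where it was rank 422 of its list, and the difference was -1.06 at percentile 3.24. All 5 promoter regions shared by both lists at the SOX genes were therefore higher in Shh-/-. Promoter regions in general went the other way, with a median of 0.32 over 9277 regions at promoters and of 0.16 over 13618 elsewhere, and the 5 SOX regions lay between percentiles 0.830 and 7.25 of those at promoters. Another exception was the most upstream Sox5 start, which is outside the basic annotation and so is counted as elsewhere. It had 4.41 in WT and 3.28 in Shh-/-, a difference of 1.13 at percentile 89.5. The SOX promoters were singled out after their values were seen.

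Over the whole windows of Sox5 and Sox6, the promoter regions above included, most differences had the opposite sign. Of the 22 shared regions of the Sox5 window, 18 were higher in WT with a median difference of 0.59. Of the 19 of the Sox6 window, 14 were higher in WT. Their median of 0.28 was near the 0.23 of all shared regions. The highest limb H3K27ac ratio at the 9 loci was in an intronic Sox5 region 517 kb from the most upstream start, chr6:144263850-144266299, with 6.49 in WT (rank 280) and 4.81 in Shh-/- (rank 2917). Its difference of 1.67 was at percentile 97.4. In Sox6 the largest difference was at chr7:115564550-115565499, with 4.33 in WT and 2.48 in Shh-/- (1.84, percentile 98.5), followed by chr7:115690450-115691149 with 4.69 and 3.07 (1.63, percentile 97.0). The widest departure in the other direction away from promoters was also in Sox6, at chr7:115596050-115598899, with 4.05 in WT and 5.28 in Shh-/- (-1.23, percentile 1.80). These Sox6 regions were picked for their large differences after the values were seen. Over all 9 loci 53 of 73 shared regions were higher in WT, with a median difference of 0.38 and a range of -1.39 to 1.84, where 62.9% of all shared regions were higher in WT. The 15 regions at promoters, those of neighbouring genes included, had a median of 0.35 and the 58 elsewhere 0.39.

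Peaks with no overlapping peak in the other genotype, 48.5% of all WT and 38.4% of all Shh-/- H3K27ac peaks, followed one another along a stretch of Sox6. From 60 to 300 kb after its most upstream start, all 17 WT H3K27ac peaks and all 6 Shh-/- peaks overlapped none of the other list. From 300 kb to the 3′ end 12 of 28 WT and 9 of 25 Shh-/- peaks did so. In the 60 to 300 kb stretch, gaps to the other list ran from 0 bp (adjoining peaks) to 46850 bp for WT and 58700 bp for Shh-/-. The WT peaks of that 5′ stretch had log2 ratios from 2.45 to 3.95 and were weaker than the strongest ones further on (5.84), and 6 of them were in the better-ranked 50% of the list. Among these, chr7:115866400-115866849 (log2 3.95, rank 10251) was 22900 bp from the nearest Shh-/- peak, and 3 peaks from 115904100 to 115905849 were 13550 to 15100 bp from it. The best-ranked Shh-/- peak of the stretch, chr7:115747650-115747849 (3.61, rank 11119), was 55700 bp from the nearest WT peak. The stretch was chosen after its peaks were seen.

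Further WT peaks without a Shh-/- partner lay in and before Sox5. A pair 420 kb into the gene, chr6:144361550-144361949 and chr6:144362150-144362449 (log2 3.26 and 3.76), was 22950 and 23550 bp from any Shh-/- peak. Upstream of the gene, 3 peaks at -5.55 to -6.90 kb from the most upstream start (3.63, 3.29 and 3.43) lay 5500 to 6600 bp from one. The 1700-bp wide WT peak chr6:144778500-144780199 (3.94, rank 10329), just inside the gene, was 1500 bp from one.

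**Figure D3:**
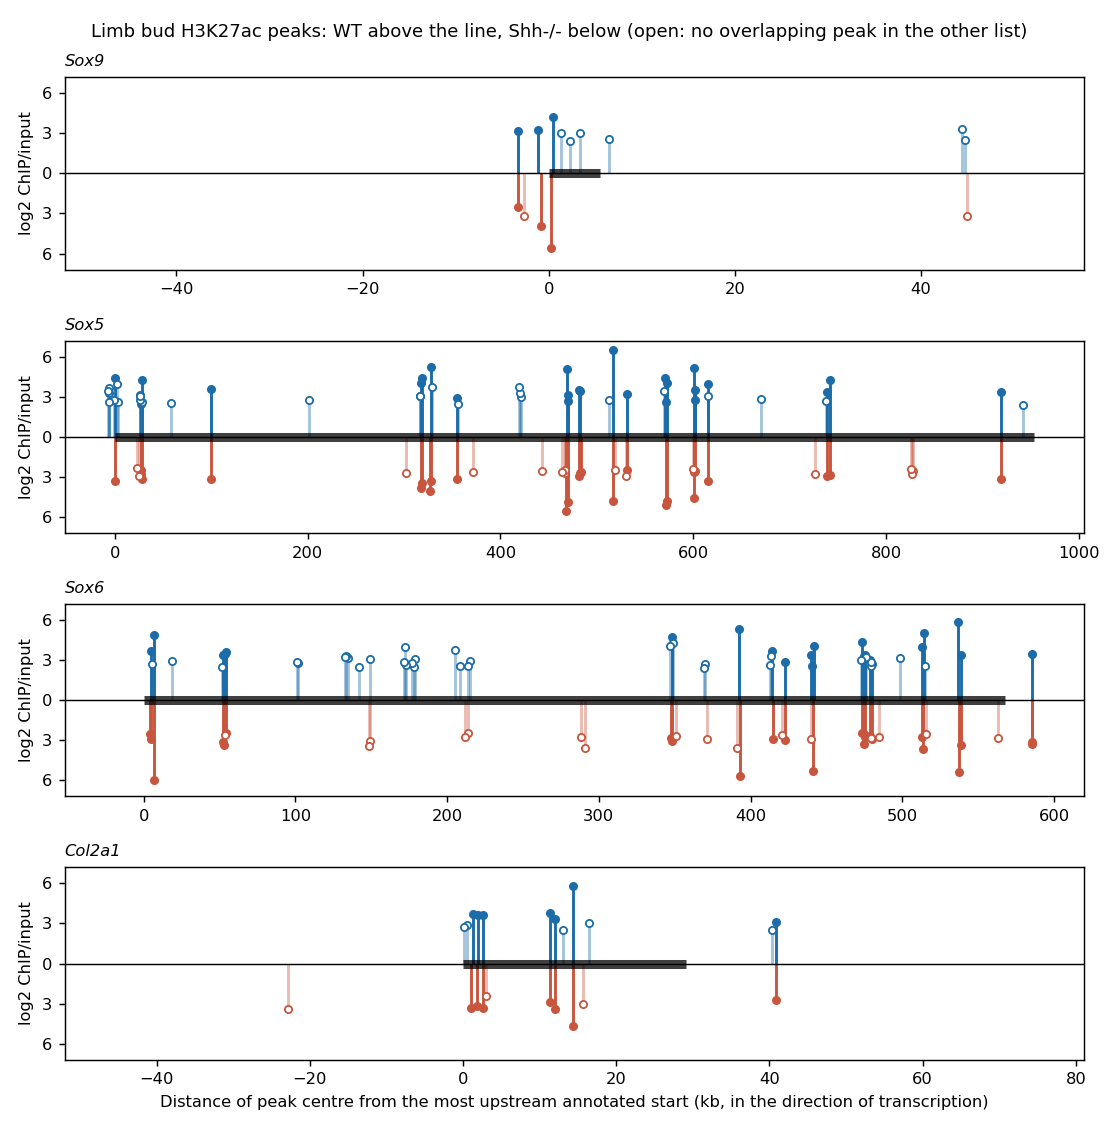
Limb H3K27ac peaks at Sox9, Sox5, Sox6 and Col2a1 by distance of the peak centre from the most upstream start (kb), with the log2 ratio of ChIP to input upward for WT and downward for Shh-/-, and open circles for peaks with no overlapping peak in the other list. The Sox9 start is lower in WT (4.21) than in Shh-/- (5.60), and from 60 to 300 kb of Sox6 all 17 WT and all 6 Shh-/- peaks are open.

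Col2a1 (chr15:97975602-98004695, minus strand) carried all 3 marks in Shh-/- buds. Its strongest limb H3K27ac peak was inside the gene, 14.3 kb from the start, with 5.78 in WT (rank 1161) and 4.70 in Shh-/- (rank 3335), and the difference of 1.08 was at percentile 88.2. Near the start the peaks were weaker. The shared region chr15:98003300-98003849, about 1 kb into the gene, had 3.71 in WT and 3.33 in Shh-/-, a difference of 0.38 at percentile 59.2, and 2 WT peaks nearer the start (2.90 and 2.73) had no Shh-/- partner. Of the 7 shared regions in the window, 6 were higher in WT. H3K27me3 lay at chr15:98000200-98001849 (log2 3.81, rank 1461) and in 4 short peaks around the start, and all 5 overlapped H3K4me2. A Shh-/- H3K27ac peak upstream of the gene, at -22.8 kb from the start, chr15:98027350-98027649 (3.43), was 22750 bp from any WT peak.

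Acan (chr7:79053483-79115099, plus strand) had no H3K27ac of its own in limb buds. Its promoter carried H3K27me3, with log2 4.61 at chr7:79052900-79053999 (rank 358), together with H3K4me2 of 3.39 in WT and 4.05 in Shh-/-. The 2 WT H3K27ac peaks in its window, both without a Shh-/- partner, were at the Mfge8 promoter. The largest H3K4me2 difference at any of the loci was at the promoter of its neighbour Hapln3, a hyaluronan and proteoglycan link protein gene, with 4.03 in WT and 2.45 in Shh-/- at chr7:79130750-79131199 (1.58, percentile 99.6).

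Runx2 (chr17:44495987-44814797, minus strand) carried its limb marks at the start 78.1 kb downstream of the first. There H3K27me3 reached 4.03 (chr17:44736500-44739699, rank 935) with another peak of 3.58 just 3′ of it (chr17:44733200-44735449), and H3K4me2 was 4.36 in WT and 3.82 in Shh-/-. A 200-bp H3K27ac peak, chr17:44736200-44736399 (3.51, rank 12362), lay in the gap between H3K27me3 peaks in Shh-/- and had no WT peak within 31900 bp. The first start had no limb mark. Of the 15 WT and 10 Shh-/- H3K27ac peaks in the window, the best-ranked Shh-/- one (3.71) was at the promoter of Supt3, which overlaps Runx2. The best-ranked WT one was intronic, chr17:44617800-44618299 (3.90), 200 bp from the nearest Shh-/- peak.

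Runx3 (chr4:135120652-135177990, plus strand) had the widest H3K27me3 peak at these loci. It spanned 10400 bp around the downstream start (chr4:135148400-135158799, log2 5.04, rank 116), with 4 further peaks of FDR under 0.05 upstream of it in the intron. H3K4me2 at that start was weak, with 2.12 in WT and 2.92 in Shh-/-, and 4 of the 6 shared H3K4me2 regions of the locus were lower in WT (median difference -0.61). The single limb H3K27ac peak, chr4:135166450-135166899 in WT (3.47, rank 16651), was 104650 bp from the nearest Shh-/- peak.

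**Figure D4:**
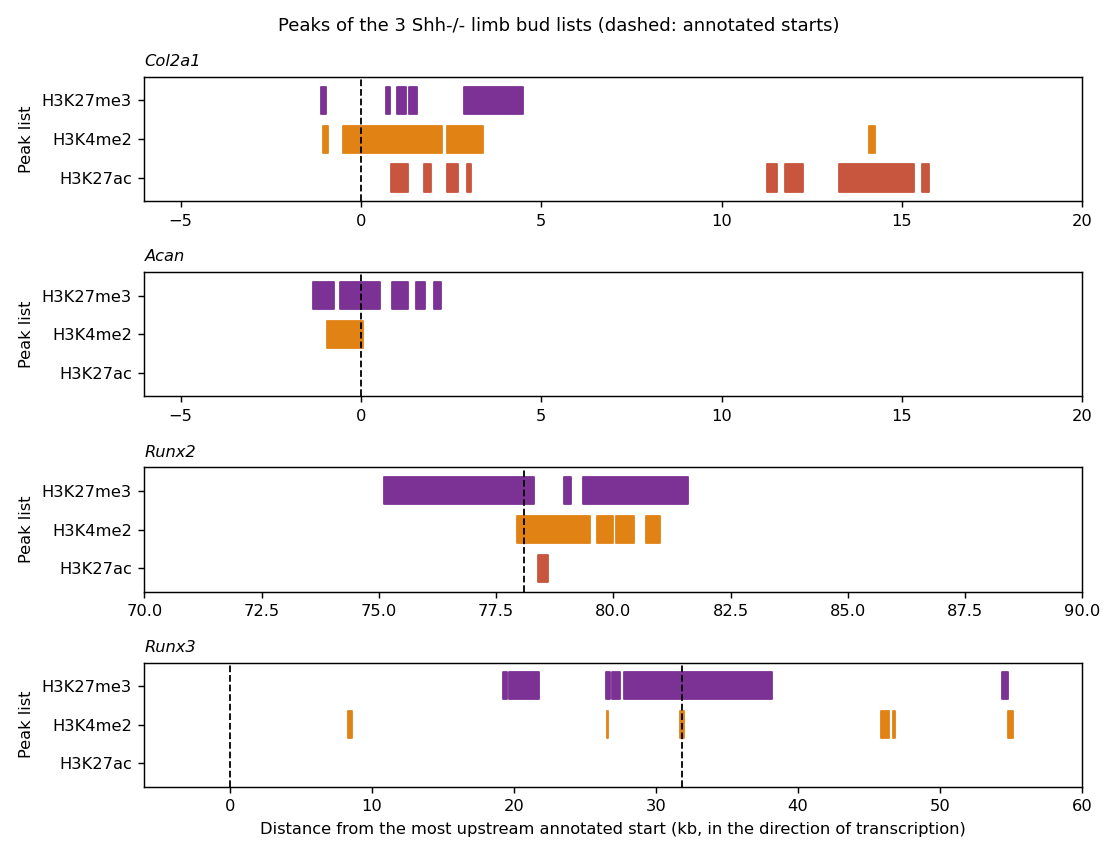
Peaks of H3K27me3, H3K4me2 and H3K27ac in Shh-/- limb buds at Col2a1, Acan, Runx2 and Runx3 by distance from the most upstream start (kb), with dashed lines at annotated starts. H3K27me3 and H3K4me2 share the marked starts except the upstream Runx3 start, which has no peak. The Runx3 H3K27me3 peak is 10400 bp wide, and H3K27ac is missing at the Acan and Runx3 starts.

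Sp7 (chr15:102356606-102367182, minus strand) and Scx (chr15:76457452-76459458, plus strand) had H3K4me2 at their starts and neither H3K27ac nor H3K27me3 there. The Sp7 promoter was weakly marked, with 2.49 in WT and 2.25 in Shh-/-, and its ranks lay 76.6% and 98.7% down their lists. At its 3′ end, chr15:102354950-102356899 was acetylated with 5.26 in WT and 4.86 in Shh-/-. The Scx promoter was well marked, with H3K4me2 of 3.97 in WT and 4.38 in Shh-/-. Downstream of it, inside Bop1, chr15:76460800-76463199 had H3K27ac of 5.64 in WT and 4.10 in Shh-/- (1.54, percentile 96.3), and whether it belongs to Scx or Bop1 cannot be told apart here.

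Over the 9 loci, the shares of peaks without a partner lay near the background for H3K27ac. They were 86 of 166 WT H3K27ac peaks, or 51.8% (44.3 to 59.3), against 48.5% of the whole list, and 41 of 124 Shh-/- peaks, or 33.1% (25.4 to 41.7), against 38.4%. In the better-ranked 50% of each list they were 25 of 90 WT peaks against 24.9% of the list and 8 of 59 Shh-/- peaks against 17.3%. By gene the WT count was 6 of 9 at Sox9, 26 of 51 at Sox5, 32 of 54 at Sox6, or 59.3% (46.0 to 71.3), 5 of 12 at Col2a1, 10 of 15 at Runx2, 3 of 15 at Sp7, 1 of 7 at Scx, 2 of 2 at Acan and 1 of 1 at Runx3. WT H3K27ac peaks lacking a partner were narrow (median 150 bp, and 550 bp for the shared ones), and 30 of the 86 lay within 500 bp of a Shh-/- peak. By place, 65 of 114 WT peaks in introns of the 9 genes and 4 of 10 at their promoters had none.

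For H3K4me2, 31 of 84 WT peaks had no Shh-/- partner, or 36.9% (27.4 to 47.6), against 25.7% of the list. The excess was not seen among strong peaks. In the better-ranked 50% of the list 1 of 31 peaks had none against 3.59%, namely chr4:135153900-135154199 in Runx3 (log2 3.55). Of covered bases, 27.2% at the loci had no partner against 28.7% over the list, so the higher share did not hold by length. Of Shh-/- H3K4me2 peaks, 23 of 83 had no WT partner, or 27.7% (19.2 to 38.2), against 22.5%, and 0 of 35 in the better-ranked 50% against 4.03%. At the 48 shared regions 23 were higher in WT, the median difference was -0.02, and the background was 46.8% higher in WT with a median of -0.05. Most were higher in WT at Sp7 (10 of 13), Acan (3 of 4) and Runx2 (2 of 2), and most were lower in WT at the remaining genes. At the upstream Sox6 start the difference was -0.63, from 4.28 in WT to 4.91 in Shh-/- (rank 383).

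H3K27me3 peaks at these loci overlapped H3K4me2 more often than in the whole list. Overlap of H3K27me3 with H3K27ac was rare at the loci and over the lists alike. In Shh-/- buds 14 of 32 H3K27me3 peaks overlapped H3K4me2, or 43.8% (28.2 to 60.7), against 20.1% of all H3K27me3 peaks. By gene these were 5 of 5 at Col2a1, 3 of 5 at Runx2, 2 of 5 at Acan and 2 of 7 at Runx3. The SOX genes had 1 of 2 at Sox6, 1 of 7 at Sox5 and 0 of 1 at Sox9. In the other direction 13 of 83 H3K4me2 peaks overlapped H3K27me3, or 15.7% (9.39 to 25.0), against 11.4%, which lay inside the interval. H3K27ac was overlapped by 2 of 32 H3K27me3 peaks, or 6.25% (1.73 to 20.1), against 1.91%. H3K27me3 was overlapped by 2 of 124 H3K27ac peaks, or 1.61% (0.443 to 5.69), against 0.701%. All of these were at Col2a1, and both backgrounds lay inside the intervals. Of the 32 H3K27me3 peaks 17 had an FDR under 0.05, where 47.2% of that whole list did.

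H3K27ac and H3K4me2 overlapped about as often as elsewhere. Of WT H3K27ac peaks 50 of 166 overlapped WT H3K4me2, or 30.1% (23.7 to 37.5), against 32.1%, and of Shh-/- H3K27ac peaks 31 of 124 overlapped Shh-/- H3K4me2, or 25.0% (18.2 to 33.3), against 31.5%. The genes differed widely in this. In WT the counts were 7 of 51 at Sox5 and 6 of 54 at Sox6, where most acetylated regions are intronic, and 9 of 12 at Col2a1 and 11 of 15 at Sp7.

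Sequence matches were searched on both strands of the limb H3K27ac peaks for GACCACCCA (GLI), AACAATGG (SOX) and TGTGGTTT (RUNX). No peak at the loci had an exact GLI match, 0 of 166 in WT (upper limit 2.26%) against 0.401% of the list and 0 of 124 in Shh-/- (upper limit 3.00%) against 0.266%. SOX matches were in 3 WT peaks (1.81%, background 1.83%) and 2 Shh-/- peaks (1.61%, background 1.72%), and RUNX matches were in 5 WT peaks (3.01%, background 3.04%) and 5 Shh-/- peaks (4.03%, background 2.95%). Among all 32851 RefSeq promoters GLI, SOX and RUNX matches were in 0.253%, 1.05% and 1.78%. The background lay inside the interval of each of these shares. All exact matches in the peaks were in Sox5 and Sox6, and some of the peaks that hold them are those described above, so these sites are shown with 20 bases on either side and the match in capitals. The strongest Sox5 peak held a SOX match (chr6:144264807-144264854, plus strand), and the Sox5 promoter peak 572 kb into the gene held both a SOX match (chr6:144210862-144210909, minus strand) and a RUNX match (chr6:144211165-144211212, minus strand). A RUNX match in Sox6 (chr7:115691497-115691544, plus strand) and a SOX match (chr7:115865952-115865999, minus strand) lay in WT peaks with no Shh-/- partner. The upstream Runx2 promoter, acetylated in NIH3T3 cells, held a RUNX match (chr17:44814682-44814729, plus strand).
Sox5 strongest peak, SOX match: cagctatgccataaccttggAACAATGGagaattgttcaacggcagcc
Sox5 promoter peak, SOX match: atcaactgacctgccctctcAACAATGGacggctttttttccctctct
Sox5 promoter peak, RUNX match: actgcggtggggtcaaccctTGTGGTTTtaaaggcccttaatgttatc
Sox6 WT peak, RUNX match: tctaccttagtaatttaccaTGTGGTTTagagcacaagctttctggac
Sox6 WT peak, SOX match: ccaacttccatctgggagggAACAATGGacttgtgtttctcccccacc
Runx2 upstream promoter, RUNX match: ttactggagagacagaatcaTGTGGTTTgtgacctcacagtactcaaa

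How far NIH3T3 acetylation overlapped that of the limb differed between the loci. Of the 166 WT limb H3K27ac peaks 38 overlapped a NIH3T3 DMSO peak, or 22.9% (17.2 to 29.9), against 38.2% of all WT limb peaks. The counts were low at Sox6 (0 of 54), Sox5 (5 of 51), Col2a1 (2 of 12) and Runx3 (0 of 1). They were 5 of 9 at Sox9, 8 of 15 at Runx2, 9 of 15 at Sp7, 2 of 2 at Acan and 7 of 7 at Scx. In the other direction 30 of 194 DMSO peaks overlapped a WT limb peak, or 15.5% (11.1 to 21.2), against 18.5%. Runx2 was the most acetylated, with 76 peaks with DMSO and 79 with purmorphamine. Its start 78.1 kb downstream, which held H3K27me3 in Shh-/- limb buds, lay in a peak of 6750 bp with DMSO (chr17:44731350-44738099, log2 5.53, rank 240) and of 4500 bp with purmorphamine (chr17:44732550-44737049, 5.07, rank 1232). The Sox9 start had 4.80 with DMSO (rank 1822) and 5.16 with purmorphamine (rank 1095). From 36 to 53.6 kb downstream of it lay 17 peaks with DMSO and 14 with purmorphamine, where the limb had 2 WT peaks and 1 Shh-/- peak.

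Purmorphamine and DMSO differed at single regions, with no common direction over the loci. Of 100 shared regions 46 were higher with purmorphamine, with a median difference (purmorphamine minus DMSO) of -0.07, against 53.0% higher and a median of 0.04 over all 44301. At Runx3 all 5 shared regions were lower with purmorphamine (differences of -0.85 to -0.19), the largest at chr4:135094750-135095599 with 3.70 against 4.54 with DMSO. Downstream of Sox9, chr11:112832950-112833899 had 4.22 with purmorphamine and 2.69 with DMSO (1.53, percentile 99.4) and chr11:112817700-112818799 had 3.86 and 2.74 (1.12, percentile 97.3). In Runx2, chr17:44659600-44662549 had 4.42 and 3.14 (1.28, percentile 98.5) while chr17:44716600-44717399 had 2.22 and 3.36 (-1.15, percentile 1.87). The Bop1 region beside Scx had 3.40 with purmorphamine and 4.75 with DMSO (-1.35, percentile 0.817), and in Sox5 chr6:143844800-143846299 had 2.95 and 4.32 (-1.37, percentile 0.716). These single regions were picked for their large differences after the values were seen. Inside Sox5, from 200 to 540 kb after the most upstream start, there were 15 purmorphamine peaks and 0 DMSO peaks, where 36.5% of all purmorphamine peaks had no DMSO partner. The purmorphamine peaks had log2 ratios of 2.22 to 3.23, and the nearest DMSO peak was 20000 to 118950 bp away. The best-ranked pair, chr6:144328800-144329099 and chr6:144329650-144330199 (3.23 and 3.16), was 453 and 452 kb from that start, and 2 weak ones, of 2.61 and 2.55, lay within the limb region chr6:144263850-144266299 that had the highest H3K27ac in WT. From 0 to 200 kb the counts were 15 with purmorphamine and 18 with DMSO, and from 540 kb to the 3′ end 32 and 30. The stretch was chosen after its peaks were seen, and 3 of the 15 peaks were in the better-ranked 50% of the list.

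Peaks without a partner were 78 of 201 with purmorphamine, or 38.8% (32.3 to 45.7), against 36.5%, and 80 of 194 with DMSO, or 41.2% (34.5 to 48.3), against 41.1%. In the better-ranked 50% they were 8 of 85 against 16.0% and 14 of 102 against 16.9%. Without Sox5 the purmorphamine share was 29.0%, against the same 36.5%.

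**Figure D5:**
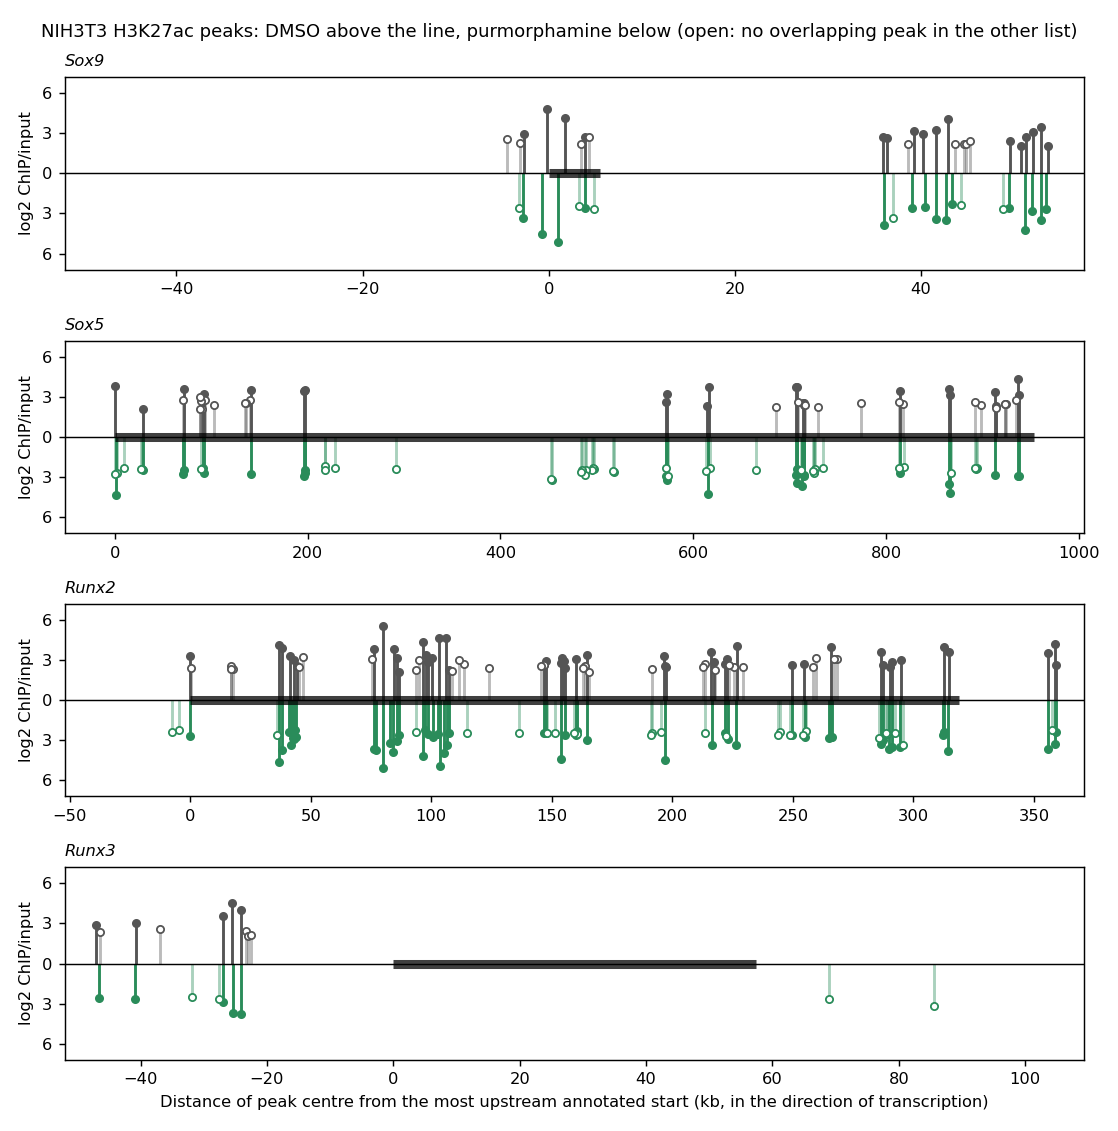
NIH3T3 H3K27ac peaks at Sox9, Sox5, Runx2 and Runx3 by distance of the peak centre from the most upstream start (kb), with the log2 ratio of ChIP to input upward for DMSO and downward for purmorphamine, and open circles for peaks with no overlapping peak in the other list. Sox5 has 15 purmorphamine and 0 DMSO peaks from 200 to 540 kb, and the 10 DMSO peaks of the Runx3 window all lie before the gene.

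Other genes of the pathway were counted from a list of 36 cartilage, tendon and bone genes. At their promoters H3K27ac was found for 13 in WT and 12 in Shh-/-, where 43.8% and 40.9% of all protein-coding genes had it. H3K4me2 was found for 28 in each genotype (64.0% and 63.5% of all genes), H3K27me3 for 17 (13.3%), and NIH3T3 H3K27ac for 13 with DMSO and 16 with purmorphamine (53.0% and 53.1%). WT without Shh-/- promoter H3K27ac was seen at 2 genes, Sox8, a close relative of Sox9, and Tnmd (tenomodulin, a tendon gene), and the reverse at 1, Dlx5, a homeobox gene of skeletal development, against 4.96% and 2.06% of all genes. H3K27me3 and H3K4me2 without H3K27ac, the state of Acan and Runx3, was found in Shh-/- buds at 12 of the 36, among them Ihh (Indian hedgehog) and Nkx3-2, and at 9.49% of all genes.

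The labelled tissue was checked by promoter H3K27ac. All 5 forelimb mesenchyme genes (Tbx5, Prrx1, Prrx2, Meis2, Hand2) were acetylated in both genotypes. Of other cell types, 0 of 3 blood and 0 of 4 ectoderm genes were acetylated in either genotype. Of 4 endothelial genes 1 was acetylated in each, Cdh5 in WT and Pecam1 in Shh-/-. The counts were 0 of 3 hindlimb genes in WT and 1 in Shh-/-, and 0 of 4 myogenic genes in WT and 2 in Shh-/-. All 4 fibroblast genes were acetylated in both NIH3T3 lists, and 2 of them (Col1a2, Col3a1) in both limb lists. Of the forelimb mesenchyme genes 3 (Prrx1, Prrx2, Meis2) were also acetylated in both NIH3T3 lists. Over all protein-coding genes the shares were 43.8% in WT, 40.9% in Shh-/-, 53.0% with DMSO and 53.1% with purmorphamine. The check thus separated limb from NIH3T3 only in part. Whether a different mix of cells moved with the differences between genotypes was not tested beyond these counts. By covered share in the 7 lists, taken as percentiles over 21884 protein-coding genes, the genes most like Sox9 were Zfp53 (distance 11.2), Hsd11b2 (11.2) and 9130019O22Rik (11.5).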

How the data were processed

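Chromatin immunoprecipitation and input DNA of E10.5 forelimb buds and NIH3T3 cells were sequenced. Per the labels reads were aligned to mm10 with Bowtie2 2.2.5, and per the study's methods peaks were called with CisGenome 2.1.0. Each condition has 2 replicates and 1 deposited list, and how the replicates were combined is not given in the sources used here. The deposited lists give each peak's position, rank, length, score (at least 3.00), FDR (a q-value), log2 ratio of ChIP to input and −log10 Poisson p-value (at most 100), all as the authors computed them. Read depth per library is not in the lists, so the precision it gives is unknown. The study's limma comparison of genotypes was not used here.

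From these lists, peaks overlapping each gene body with 50 kb on either side (GENCODE vM21) were taken with Python 3.11.15, pandas 2.3.3, numpy 2.4.6 and pysam 0.24.0. Overlaps were checked against bedtools 2.31.1 and on simulated lists, and figures were drawn with matplotlib 3.10.9. A peak was shared if at least 1 bp overlapped a peak of the other condition. Where merged regions held peaks of both lists, the highest log2 ratio of each list was compared. Promoters ran from 2 kb before to 1 kb after a GENCODE basic start. The regions named by rule were, per gene, the best-ranked peak of each list, promoter peaks and unshared peaks in the better-ranked 50%. Other regions and stretches were named after their values were seen, among them those with the largest differences. Percentiles of such regions are those of picked extremes. Alternatives tried were overlap of 50% of a peak, gaps up to 500 bp, FDR under 0.05, the better-ranked 50%, covered bases, windows of 20 or 100 kb, narrower promoters, leaving out each locus, lists of equal length and all GENCODE starts. The genes, lists and tests were chosen with earlier results of these data known.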

Additional observations from a re-analysis of the deposited data

How the results depend on the processing

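No paired analysis was possible because each condition is 1 list with no replicate columns, and no replicate could be left out for the same reason. Of 170 alternative values, 151 were called unmoved, and 13 of the 170 were chosen after seeing the data (lists of equal length, all GENCODE starts). A share was unmoved if it stayed inside the interval of the value reported. Gene counts have no interval and were unmoved within a set ratio. This rule was loose, since 6 against 4 genes for purmorphamine covered share (better-ranked 50%) passed it. By these rules no promoter count or covered-share count moved. Nor did the shares of Shh-/- H3K27ac and H3K4me2 peaks that overlapped H3K27me3. The shares of H3K27me3 peaks that overlapped the other marks had no alternative, and neither had the SOX and RUNX match counts. The shares of peaks without a partner depended on how sharing was defined, and the whole-list share is given after each. Counting gaps up to 500 bp as shared gave 33.7% (29.5%) for WT H3K27ac, 22.6% (20.2%) for Shh-/- H3K27ac, 23.8% (11.8%) for WT H3K4me2, 12.0% (10.2%) for Shh-/- H3K4me2, 23.9% (23.9%) for purmorphamine and 22.7% (26.1%) for DMSO. Requiring 50% of a peak to be covered gave 68.1% (58.9%) for WT H3K27ac and 52.1% (51.2%) for DMSO. With the better-ranked 50% of both lists the shares were 48.9% (40.3%) for WT and 22.0% (29.3%) for Shh-/- H3K27ac. They were 12.9% (21.0%) for WT and 20.0% (20.8%) for Shh-/- H3K4me2, 18.8% (26.8%) for purmorphamine and 33.3% (30.4%) for DMSO. By base pairs they were 47.5% (40.3%) for WT and 24.7% (29.5%) for Shh-/- H3K27ac. For H3K4me2 they were 27.2% (28.7%) in WT and 19.2% (20.7%) in Shh-/-, with 29.9% (29.6%) for purmorphamine and 40.1% (34.0%) for DMSO. Each of the 6 shares lay on the other side of its background under at least 1 alternative, for WT H3K27ac without Sox6 (48.2% against 48.5%). The cause was not tested. Leaving out 1 locus gave 48.2% to 55.0% for WT H3K27ac, 29.8% to 36.6% for Shh-/- H3K27ac, 33.8% to 43.5% for WT H3K4me2, 24.7% to 29.9% for Shh-/- H3K4me2, 38.4% to 43.2% for DMSO and 29.0% to 42.6% for purmorphamine, the lowest without Sox5. With 1 mismatch allowed, GLI matches were in 7.23% of WT and 7.26% of Shh-/- H3K27ac peaks, against 8.74% and 8.24% of the lists. Log2 ratios are not scaled between lists, so differences are read against the median of all shared regions.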
